A study of Mus musculus with 8 samples.

Results

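The genes described here are the 9646 of 23478 genes in the count table of sorted tracheal mesenchyme that were expressed in the control cells, selected on the control values alone, and the comparison is between cells with and without Bmp4. A gene counted as expressed when it had at least 10 CPM, its count scaled to a common library total, in each of the 3 control libraries, and all libraries were then rescaled on these genes alone. The cells came from mouse tracheas at E13.5, in mid-gestation. The 2 mutants carried Bmp4 flox/flox, a Cre allele and the γSMAeGFP reporter of smooth muscle gamma-actin, and the 3 controls carried Bmp4 flox/flox and the reporter without Cre, so the Cre allele and the loss of Bmp4 cannot be told apart. All groups were sorted for cells negative for EPCAM, a surface protein of epithelium, and negative for the GFP of muscle, and the labels call them chondroblasts. Whether the libraries within a group are different embryos or litters is not stated in the labels, so each p-value measures only the spread between these libraries. A second experiment, whole tracheas at the same age from 1 Wls flox/flox ShhCre mutant and 2 Wls flox/flox controls, is used only to look at the same genes in libraries that the choice of genes did not use.

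BMP4 is a secreted growth factor that binds paired receptor kinases on the cell surface, which phosphorylate SMAD proteins that enter the nucleus and switch on genes such as the Id family and Msx2. In the embryonic trachea it is made in the mesenchyme on the ventral side, where the cartilage rings form under the transcription factor SOX9 with its partners SOX5 and SOX6. On the dorsal side the mesenchyme makes the trachealis muscle, and the cells between these make fibrous matrix.

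The expressed genes held 77.7% and 92.3% of the counts of the mutants and 96.4% to 97.8% of those of the controls. Library totals were 12964287 and 15462780 counts in the mutants and between 48876948 and 55492747 in the controls. In mutant 1 the embryonic globin gene Hbb-y, a gene of primitive red blood cells, alone took 1365116 counts; it is not among the expressed genes. Both mutants also carried an even read background that the controls lacked. Over 4344 genes silent in the controls it came to 13.3 and 12.3 counts per kilobase of exon in the mutants, and at that rate it made up a median of 11.03% and 7.16% of an expressed gene's counts. The limit was set on control values only. Genes that were low in controls and high in mutants are therefore not among those described: 1996 genes missed the limit and had at least 10 CPM in both mutants, with the muscle genes Myh11, Actg2 and Myocd among them. The libraries also differed in sex-linked genes: Xist, made from the inactive X of females, was at 99.4 and 38.4 CPM against 381, 222 and 243.96, and the Y gene Ddx3y at 13.4 and 67.0 against 0.108, 41.2 and 34.1. Just inside the limit stood Deptor, Fnip2 and Serhl, each with a lowest control value of 10.001 CPM, and just outside it Gtdc1 and Stab1 at 9.9972 CPM and Miat at 9.9833 CPM.

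Of the 9646 expressed genes, 331 (3.43%) passed edgeR's quasi-likelihood test at an adjusted p under 0.05, with Benjamini-Hochberg adjustment over all 9646. Of these, 95 were lower in the mutants (0.985% of expressed genes) and 236 were higher (2.45%). Without the test, 4390 genes (45.5%) had groups that did not overlap. A gene in one of these sets is said below to have fallen or risen. Values per gene are normalised CPM, that is CPM of the expressed-gene total with TMM factors, and each log2 fold change is mutants minus controls with its standard error. The 2 sets differed in control level and exon length. The control level also enters the limit and the fold change, so part of its difference is built in. The genes that fell had a median control level of 132 CPM and a median exon length of 4029 bases, and those that rose had 19.6 CPM and 7891 bases, against 54.4 CPM and 4682 bases over all expressed genes. Of the 236 genes that rose, 121 had a control mean under 20 CPM, and the even background made up a median of 19.4% and 14.1% of their counts in the mutants. The part of the background in these calls was not tested gene by gene. When it was subtracted, 233 of the 235 risen genes with a length kept their direction, but the test then called 10 genes higher and 11 lower.

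**Figure D1:**
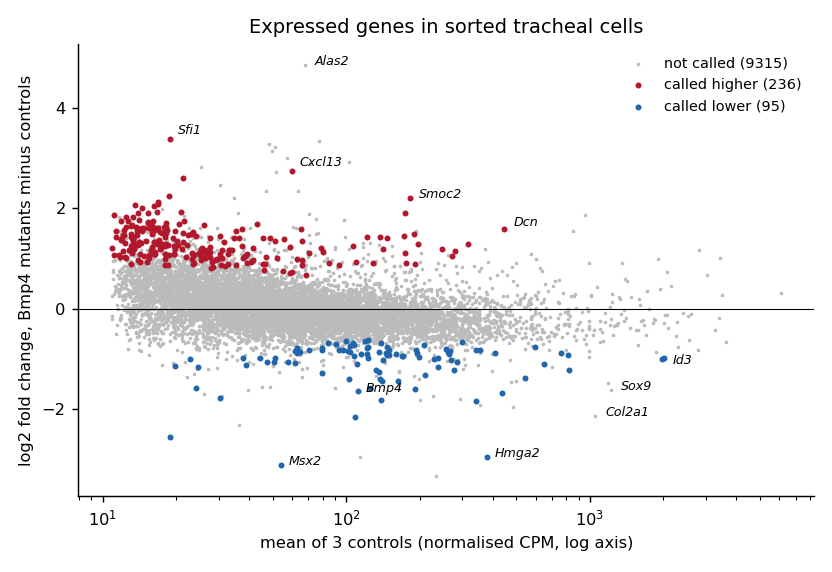
Log2 fold change of each expressed gene (vertical axis) against its mean normalised CPM in the 3 controls (horizontal axis, log scale), with the 95 genes that fell in blue, the 236 that rose in red and the 9315 others in grey. The red points crowd at the low end of the level axis, while the blue points spread from low to high levels; Sox9, Col2a1 and Alas2 lie far from 0 and are grey.

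The calls depended on having all 5 libraries. All 331 genes kept their direction and an unadjusted p under 0.05 whichever library was left out. They had been chosen for passing with all libraries, and without 1 mutant the other is a single library assumed to vary as the controls do, so this is no measure of stability. The number past the adjusted threshold was 2 without mutant 1, 369 without mutant 2 (157 of them among the 331), 0 without control 1, 1 without control 2 and 0 without control 3. The 2 mutants differed by 2-fold or more in 415 expressed genes, and pairs of controls in 112 to 393. When all genes of the table were tested with the same scaling, 10645 of 21665 (49.1%) passed, 997 higher and 728 lower among the expressed genes.

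Promoter sequences are shown for 4 genes that fell. Msx2 and Id3 stand for the BMP response, and Spsb4 and the non-coding RNA 2610035D17Rik for genes also lower in the Wls mutant. The last pair hold a motif match and do not represent that group. The promoters of Bmp4, Snai1, Snx22, Sox5, Sox6, Hmga2 and Tenm4, also lower in both experiments, held no match to the motifs searched and are not printed. They are the 250 bases before the start site from RefSeq (GRCm38.p6), read 5′ to 3′ on the gene's strand, with motif matches in capitals.
Msx2, chr13:53472781-53473030, minus strand: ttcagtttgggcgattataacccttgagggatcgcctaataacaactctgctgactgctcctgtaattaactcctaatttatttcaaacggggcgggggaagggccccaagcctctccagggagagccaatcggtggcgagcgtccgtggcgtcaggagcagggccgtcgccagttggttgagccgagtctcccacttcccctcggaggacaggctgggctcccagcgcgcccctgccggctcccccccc
Id3, chr4:136143572-136143821, plus strand: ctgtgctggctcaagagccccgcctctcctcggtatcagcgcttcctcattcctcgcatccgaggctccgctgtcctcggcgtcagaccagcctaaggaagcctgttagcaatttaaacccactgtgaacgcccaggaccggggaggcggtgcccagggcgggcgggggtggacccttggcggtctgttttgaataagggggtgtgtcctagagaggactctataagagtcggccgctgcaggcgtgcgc
Spsb4, chr9:97018356-97018605, minus strand: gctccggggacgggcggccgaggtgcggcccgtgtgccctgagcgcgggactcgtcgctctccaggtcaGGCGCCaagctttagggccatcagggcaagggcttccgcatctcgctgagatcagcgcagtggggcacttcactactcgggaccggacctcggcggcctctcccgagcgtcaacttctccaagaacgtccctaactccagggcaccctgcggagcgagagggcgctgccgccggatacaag
2610035D17Rik, chr11:113201839-113202088, minus strand: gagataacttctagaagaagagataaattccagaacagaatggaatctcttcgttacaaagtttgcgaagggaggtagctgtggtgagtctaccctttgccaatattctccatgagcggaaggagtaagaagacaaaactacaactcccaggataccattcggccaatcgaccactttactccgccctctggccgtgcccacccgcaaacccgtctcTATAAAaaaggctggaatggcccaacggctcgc

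The capitals in Spsb4 mark GGCGCC, a GC-rich element known to bind SMADs of the BMP branch, 181 bases before the start site. Those in 2610035D17Rik mark a TATA box, TATAAA, 33 bases before the start site. GGCGCC and 3 further motifs were searched in windows of 300 bases, from 250 before to 50 after the start, for the 7791 expressed genes that matched the RefSeq table. GGCGCC, searched on both strands, was in 17.3% of the 75 matched genes that fell, in 18.6% of the 183 that rose and in 22.7% of all 7791. The Smad palindrome GTCTAGAC was in 0.244% of all and in none of the 258 called genes. The TCF/LEF element CTTTGAT, on both strands, was in 1.33% of fallen, 3.83% of risen and 2.46% of all genes. TATAAA, on the gene's strand in the last 50 bases before the start, was in 1.33%, 1.64% and 1.18%. These shares are a description: a match is only a run of letters in this window.

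Bmp4 itself stood at 32.5 and 39.5 normalised CPM in the mutants and at 119, 97.6 and 118 in the controls (mm10, chromosome 14, 46383520 to 46390669). Both mutants lay below every control, with a log2 fold change of -1.63 ± 0.17 and edgeR's adjusted p = 0.0229. The remaining counts may include exons outside the deleted part or undeleted cells, which the table cannot separate. Among 23 expressed BMP ligands, receptors and antagonists, 2 fell, 0 rose, and the median log2 fold change was -0.01, that of all expressed genes being 0.01. The second to fall was Gdf5, a BMP-family ligand of joints and cartilage, at 43.0 and 82.4 CPM in the mutants against 216, 196 and 161 in controls (-1.60 ± 0.29, adjusted p = 0.0415). The receptor genes Bmpr1a and Bmpr2 had log2 fold changes of -0.26 ± 0.14 and -0.32 ± 0.17 and the ligand gene Bmp7 one of 0.59 ± 0.22. Their adjusted p-values from edgeR were 0.282, 0.264 and 0.152. For Bmpr2, however, the even background rate comes to 55.9% and 33.99% of the counts in the mutants. With the background subtracted, Bmpr2 was at -1.0045 (edgeR's adjusted p = 0.0899), and Bmpr1a and Bmp7 were at -0.249 and 0.563.

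Genes known to be induced by BMP signals had lower values in the mutants. Of 15 expressed, 3 fell and 0 rose, where 0.985% of all expressed genes fell. A negative fold change was seen in 13, as in 49.3% of all expressed genes. In 9 both mutants lay below every control, as in 22.2% of all expressed genes. The median log2 fold change of the 15 was -0.83. Msx2, a homeobox repressor at the centre of many BMP responses, was at 3.94 and 8.35 CPM in the mutants and at 58.7, 57.2 and 45.4 in controls. This was the lowest ratio of any gene that fell (-3.11 ± 0.35, adjusted p = 0.0283), but its size is uncertain, since the even background rate comes to 109% of its counts in mutant 1 and 33.6% in mutant 2. With the background subtracted the value was -4.03 (adjusted p = 0.0952). It was -2.69 without mutant 1 and -3.77 without mutant 2. Id3, which blocks differentiation factors of the helix-loop-helix class, was far more abundant, at 1040.3 and 947 CPM in the mutants against 1746, 2084 and 2126 in controls (-0.999 ± 0.18, adjusted p = 0.0390). Sp7, also called osterix, a regulator of bone and late cartilage cells, was at 10.2 and 7.58 CPM against 39.7, 30.9 and 20.7 (-1.78 ± 0.33, adjusted p = 0.0435). The other Id genes did not pass. Id1 was at 94.3 and 109 CPM against 111, 249.8 and 217, and Id2 at 372 and 389 against 499, 804 and 731, with log2 fold changes of -0.92 ± 0.33 and -0.83 ± 0.23 and adjusted p-values of 0.140 and 0.0802. The mutants lay below all controls and close to each other, while control 1 stood under the other two.

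The cartilage programme showed the largest median decrease of any list with at least 5 expressed members, -0.97 over 20 genes, but few of its members passed the test. Of 40 listed genes 20 were expressed by the limit, Sox9 and Col2a1 among them, whereas Acan, the proteoglycan of mature cartilage, was at 21.1, 7.92 and 1.47 CPM of the library total in the controls and was not. Sox5, Sox6 and Sp7 fell, 0 rose, 18 had a negative fold change and 10 had both mutants below every control. Over all expressed genes these shares were 0.985% fallen, 49.3% negative and 22.2% below every control. Sox5 was at 44.0 and 58.1 CPM in the mutants and at 115, 114 and 102 in controls (-1.11 ± 0.16, adjusted p = 0.0305). Sox6 was at 56.7 and 48.9 CPM against 102, 94.5 and 83.4 (-0.82 ± 0.15, adjusted p = 0.0428). For both, the mutants agreed closely and the groups were well apart. Sox9, the master regulator of cartilage (chromosome 11, 112782224 to 112787760), was at 219 and 576 CPM against 1868, 1072 and 719. Its groups did not overlap, but the libraries of each group were spread widely, and the fold change of -1.62 ± 0.53 had an adjusted p of 0.115. Col2a1, the main cartilage collagen, was at 123 and 355 CPM against 1465, 867 and 821, and Col9a1, a collagen on the surface of its fibrils, at 53.005 and 134 against 436, 349.7 and 277. Their log2 fold changes were -2.13 ± 0.49 and -1.92 ± 0.41 with adjusted p-values of 0.0626 and 0.0542. Mutant 1 was the lower mutant for all 3 of these. The cartilage list made up 1344 and 3120 CPM of the mutant library totals, against 8280, 5383 and 4354 CPM in controls. In bulk libraries such as these, fewer cells of a kind and less RNA per cell cannot be told apart.

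**Figure D2:**
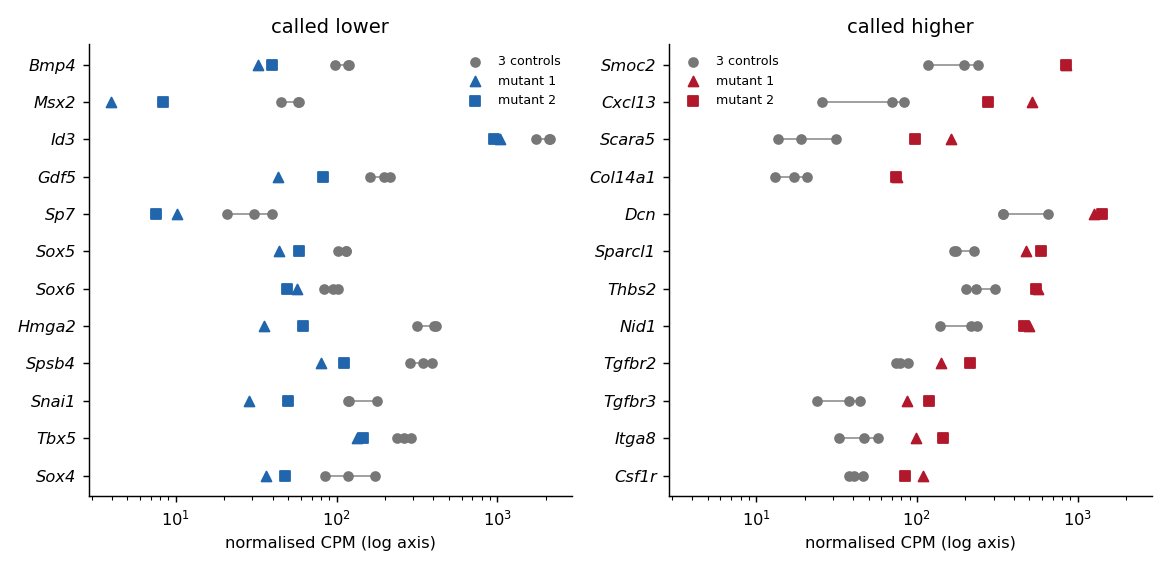
Normalised CPM (log axis) of 12 genes that fell (left) and 12 that rose (right) in each library, with grey circles for the 3 controls joined by a line over their range, triangles for mutant 1 and squares for mutant 2. In every gene shown both mutants lie outside the range of the controls.

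Regulators of the tracheal mesenchyme were also among the genes that fell. Of 26 expressed transcription factors in this list, 2 fell and 0 rose, where 0.985% of all expressed genes fell. In 19 the fold change was negative, as in 49.3% of all expressed genes. The median was -0.57, or -0.30 without mutant 1 and -0.88 without mutant 2. Tbx5, which with Tbx4 patterns the airway mesenchyme and its cartilage, was at 134 and 147 CPM in the mutants and 289, 264 and 238 in controls (-0.91 ± 0.15, adjusted p = 0.0367). Tbx4 itself was at 59.8 and 108 CPM against 194, 128 and 71.8, so mutant 2 lay inside the control range and the difference could not be shown (-0.65 ± 0.43, adjusted p = 0.379). Tbx2, a further T-box gene and a known BMP target, was at 43.9 and 60.3 CPM against 178, 124 and 96.4, just short of the threshold (-1.35 ± 0.29, adjusted p = 0.0541).

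Other genes with large decreases were the following. Hmga2, a chromatin protein of fast-growing embryonic cells, was at 35.3 and 61.9 CPM in the mutants and at 402, 316 and 416 in controls (-2.96 ± 0.29, adjusted p = 0.0229). Snai1, a repressor of epithelial genes in mesenchyme, was at 28.7 and 49.7 CPM against 178, 118 and 119 (-1.82 ± 0.30, adjusted p = 0.0367). Spsb4, which couples target proteins to ubiquitin ligases, was at 80.1 and 111 CPM against 391, 344 and 288 (-1.84 ± 0.22, adjusted p = 0.0283). Each of these 3 was at least 2-fold lower in the higher mutant than in the lowest control. Akap2, an anchor for protein kinase A, was at 134 and 139 CPM against 495, 457 and 357 (-1.68 ± 0.19, adjusted p = 0.0283). The non-coding RNA 2610035D17Rik (chromosome 11, 113043895 to 113201838) was at 16.8 and 31.4 CPM against 124, 95.1 and 106 (-2.16 ± 0.29, adjusted p = 0.0283). It lies 256.13 kilobases from Sox9 on the same chromosome. Unlike Sox9, its control libraries lay close together. Sox4, a transcription factor of progenitor cells, was at 36.3 and 47.8 CPM against 172, 118 and 84.3 (-1.57 ± 0.31, adjusted p = 0.0489). The troponin gene Tnnc1, at 4.14 and 2.43 CPM against 19.5, 13.8 and 23.4, also fell (-2.55 ± 0.36, adjusted p = 0.0291).

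Retinoic acid genes and the Hedgehog gene Gli1 were among those that fell. Of 13 expressed genes of the retinoic acid pathway 3 fell and 0 rose, with a median of -0.53, where 0.985% of all expressed genes fell. The 3 included the receptor gene Rarb, at 101 and 129 CPM in the mutants against 241, 251 and 195 in controls (-0.99 ± 0.18, adjusted p = 0.0428), and Stra6, which takes up retinol, at 81.3 and 77.1 against 120.0, 148 and 167 (-0.87 ± 0.17, adjusted p = 0.0472). Of 13 Hedgehog genes only Gli1, a transcription factor that the pathway itself induces, fell, from 69.6, 52.2 and 50.9 CPM to 28.3 and 27.2 (-1.05 ± 0.20, adjusted p = 0.0450). Its relatives Gli2 and Gli3 had log2 fold changes of -0.57 ± 0.15 and -0.68 ± 0.14 (adjusted p = 0.0772 and 0.0521). The Hedgehog gene Ptch1 had one of -0.37 ± 0.22 (edgeR's adjusted p = 0.325), but the even background rate comes to 47.4% and 39.5% of its counts in the mutants. With the background subtracted, Ptch1 was at -1.03 (edgeR's adjusted p = 0.0770), and Gli1, Gli2 and Gli3 were at -1.19, -0.57 and -0.72. The median of the Hedgehog list was -0.12. In 4 of its 13 genes both mutants lay below every control, where 22.2% of all expressed genes did. In the Wnt beta-catenin list 0 of 36 expressed genes were called, the median was -0.07, and Lef1, a nuclear effector of the pathway, was at 25.6 and 36.3 CPM against 68.4, 59.5 and 47.8 (-0.92 ± 0.23, adjusted p = 0.0726).

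On the other side, genes of fibrous connective tissue had higher values in the mutants. Of 32 expressed genes of fibroblast and perichondrial matrix, 4 rose and 0 fell, where 2.45% of all expressed genes rose. A positive fold change was seen in 29, and 20 had both mutants above every control, where 23.3% of all expressed genes did. The median log2 fold change of the 32 was 0.58, and it was 0.73 without mutant 1 and 0.56 without mutant 2. Dcn, a small proteoglycan that coats collagen fibrils, was at 1269 and 1416 CPM in the mutants and 343, 649.9 and 340.3 in controls (1.59 ± 0.30, adjusted p = 0.0443). Col14a1, a fibril-associated collagen of tendon and skin, was at 75.3 and 73.8 CPM against 17.1, 20.6 and 13.1 (2.14 ± 0.22, adjusted p = 0.0229). Thbs2, a matrix protein, was at 568 and 552 CPM against 233, 305 and 203 (1.18 ± 0.19, adjusted p = 0.0367), and Col6a3 at 290.2 and 363 against 152, 133 and 79.9 (1.42 ± 0.27, adjusted p = 0.0450). The mutants were close to each other in these genes. The abundant collagen genes Col3a1 and Col1a1 had log2 fold changes of 1.17 ± 0.25 and 0.99 ± 0.26 and missed the threshold (adjusted p = 0.0544 and 0.0756). Not every matrix gene was higher: the proteoglycan gene Vcan was at 354 and 668 CPM against 1228, 883 and 863 (-0.96 ± 0.31, adjusted p = 0.111).

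Because the even background bears most on low, long genes, the 39 risen genes with a control mean of at least 50 CPM are given separately. They were picked out after their values were seen. All 38 of them with an exon length stayed positive after subtraction. Smoc2, a secreted calcium-binding matrix protein, was at 849 and 844 CPM in the mutants and at 116, 238 and 196 in controls (2.21 ± 0.28, adjusted p = 0.0283). Cxcl13, a chemokine of stromal cells, was at 518 and 277 CPM against 25.7, 83.4 and 70.1 (2.73 ± 0.49, adjusted p = 0.0397). Cxcl12, the chemokine that guides cells with the receptor CXCR4, was at 792 and 739.6 CPM against 239, 343 and 362 (1.28 ± 0.20, adjusted p = 0.0349). Nid1, Nid2, Lamb1 and Col4a2 encode parts of basement membranes. Nid1 was at 495 and 464 CPM against 139.6, 237 and 216, Nid2 at 634 and 613 against 274, 355 and 214, Lamb1 at 399.7 and 351 against 152, 227 and 144, and Col4a2 at 276 and 208 against 137, 123 and 129. Their log2 fold changes were 1.28 ± 0.23, 1.15 ± 0.22, 1.11 ± 0.22 and 0.90 ± 0.16, with edgeR's adjusted p-values between 0.0397 and 0.0484. In each of the 4 the lower mutant was well above the highest control. Sparcl1, Matn2 and Gsn, which encode 2 matrix proteins and the actin-severing protein gelsolin, had log2 fold changes of 1.48 ± 0.19, 1.44 ± 0.27 and 1.42 ± 0.23.

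In the TGF-beta pathway 2 receptor genes rose. They were the only called members among 16 expressed, where 2.45% of all expressed genes rose. The median of the list was -0.24, or 0.02 without mutant 1 and -0.50 without mutant 2. Tgfbr2, the ligand-binding receptor kinase, was at 141 and 215 CPM in the mutants against 78.9, 88.5 and 74.5 in controls (1.14 ± 0.20, adjusted p = 0.0381). Tgfbr3, the co-receptor betaglycan, was at 86.2 and 119 CPM against 37.6, 44.3 and 23.9 (1.54 ± 0.28, adjusted p = 0.0397). Among lower-level genes that rose, Scara5, a ferritin receptor of stromal cells, was at 163 and 97.8 CPM against 19.03, 31.5 and 13.8 (2.60 ± 0.37, adjusted p = 0.0291), and Slc40a1, the iron exporter ferroportin, at 62.5 and 114 against 18.8, 18.8 and 18.5 (2.24 ± 0.25, adjusted p = 0.0283). Oxtr, the oxytocin receptor, was at 56.5 and 69.8 CPM against 17.1, 22.0 and 11.03 (1.92 ± 0.30, adjusted p = 0.0330). Atp8a1, a lipid flippase, was at 59.1 and 54.7 CPM against 12.1, 15.6 and 13.1 (2.07 ± 0.19, adjusted p = 0.0229), and it shows how the background enters: at the even rate it made up 31.7% and 22.3% of the counts of Atp8a1 in the mutants, against 11.1% and 5.88% for Oxtr. The highest fold change of any risen gene was that of Sfi1, at 257 and 137 CPM against 18.4, 20.7 and 17.7 (3.38 ± 0.26, adjusted p = 0.0229). Sfi1 and the pseudogene Pisd-ps3 have near-identical copies in the mouse genome, so their counts are uncertain.

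Smooth muscle genes had higher values in the mutants, for several of them mostly in mutant 1. Of 16 expressed markers 1 rose and 0 fell, where 2.45% of all expressed genes rose. A positive fold change was seen in 15, where 49.3% of all expressed genes had a negative one. The median of 0.50 was 0.17 without mutant 1 and 0.82 without mutant 2. Itga8, an integrin of smooth muscle and mesenchyme, was at 98.1 and 145 CPM against 32.5, 57.3 and 47.2 (1.42 ± 0.27, adjusted p = 0.0443). Acta2, smooth muscle alpha-actin, was at 849 CPM in mutant 1 and 103 in mutant 2 against 50.1, 39.3 and 63.7 in controls. Its fold change of 3.22 ± 0.74 did not pass (adjusted p = 0.0619) and was 1.01 without mutant 1. Of the muscle genes under the control limit, Myh11, Actg2, Myocd, Lmod1 and Kcnmb1 were above the controls in both mutants. Myh11, smooth muscle myosin, was at 203 and 50.8 CPM of the library total against 0.883 to 3.14. Actg2 was at 200.5 and 19.5 CPM against 4.58 to 6.82, and Myocd at 41.2 and 21.7 against 4.62 to 6.397. For Cnn1, Synpo2 and Pcp4l1 only mutant 1 lay above the controls, and mutant 2 lay inside their range. Cnn1, for example, was at 125.65 and 13.581 CPM against 7.4023 to 15.011. All of these genes had to be under the limit in a control to be left out. The muscle sum over all its listed genes was 5463 and 3160 CPM of the library total in the mutants and 3276 to 3571 in the controls.

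**Figure D3:**
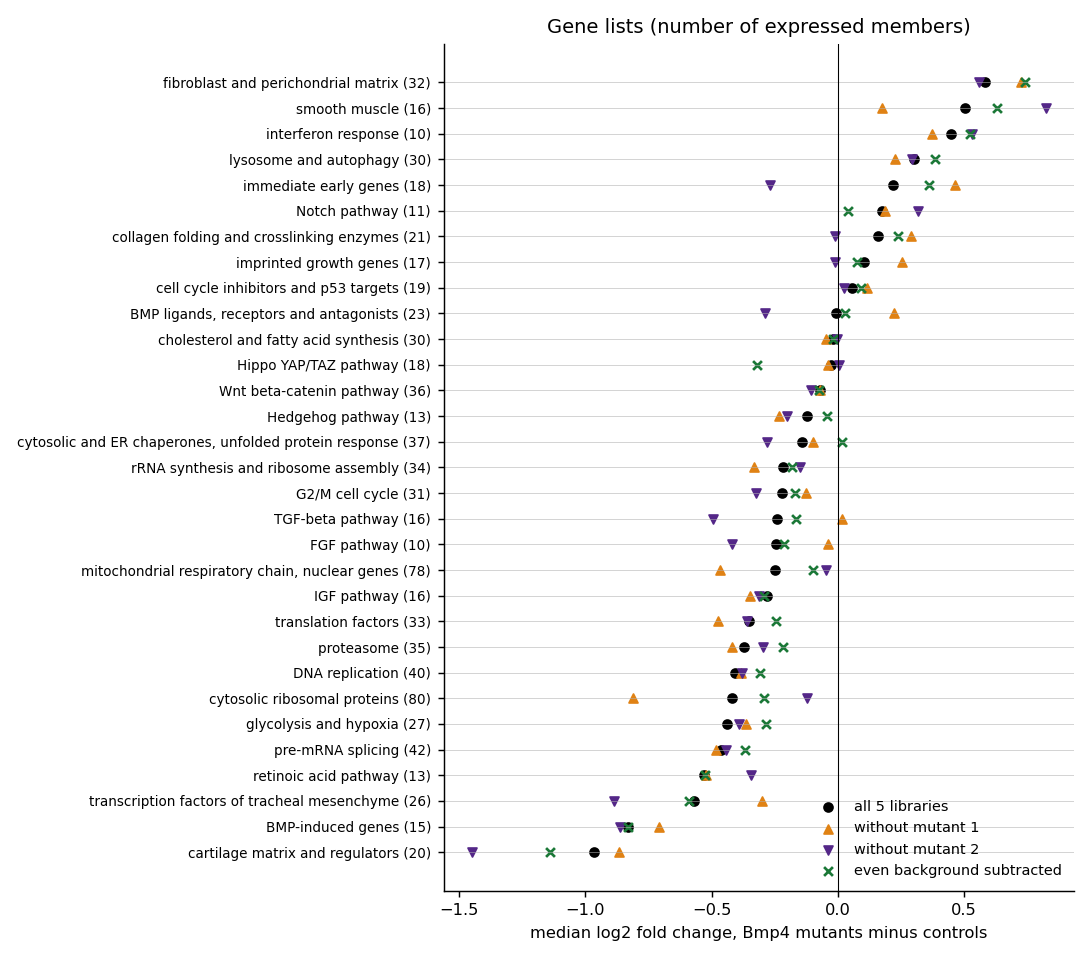
Median log2 fold change of the expressed members of each pathway list and of smooth muscle (black circles; number of members in brackets), with the same median without mutant 1 (orange), without mutant 2 (purple) and after subtraction of the even background (green crosses). Among the lists shown, cartilage and BMP-induced genes stand lowest at -0.97 and -0.83 and fibroblast matrix highest at 0.58. The orange and purple marks lie far apart for immediate early genes, at 0.46 and -0.27, and also for smooth muscle and for ribosomal proteins. Marker lists of other cell types are not shown. The medians of neural, leukocyte and endothelial markers were higher, at 0.82, 0.68 and 0.68 over 13, 12 and 5 expressed genes.

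Genes of RNA processing and metabolism had small negative fold changes in many members. Of 42 expressed splicing genes 4 fell, 0 rose, 41 had a negative fold change (49.3% of all expressed genes had) and 34 had both mutants below every control (22.2% of all had), with a median of -0.46. The 4 were Hnrnpa1, at 91.1 and 114 CPM in the mutants against 188, 187 and 224 in controls (-0.96 ± 0.17, adjusted p = 0.0387), and the core snRNP genes Snrpe, Snrpd1 and Snrpd3, with log2 fold changes of -0.83, -0.74 and -0.67. Among 27 glycolysis and hypoxia genes 4 fell and 1 rose, with a median of -0.44. Over all expressed genes 0.985% fell and 2.45% rose. Ldha, lactate dehydrogenase, was at 886 and 1144 CPM against 2045, 1827 and 2149.5 (-0.98 ± 0.19, adjusted p = 0.0454). Eno1, enolase, was at 469 and 388 against 804, 859 and 782 (-0.93 ± 0.16, adjusted p = 0.0373). The member that rose, Pfkp, an isoform of phosphofructokinase, was at 48.0 and 41.5 against 17.7, 22.4 and 15.3 (1.28 ± 0.22, adjusted p = 0.0379). Of 80 ribosomal protein genes 79 had a negative fold change but 0 were called, and their median of -0.42 was -0.81 without mutant 1 and -0.12 without mutant 2. Of 40 DNA replication genes 0 were called and 29 had both mutants below every control, as had 22.2% of all expressed genes. Fold changes also followed level and length over all expressed genes: the median was 0.37 in the fifth of genes with the lowest control level and -0.21 in the highest, and -0.10 in the fifth with the shortest exons and 0.14 in the longest. After subtraction the values by level were 0.15 and -0.08. The lists of this paragraph hold abundant genes, and the part of the trend with level in their medians was not tested.

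Markers of other cell types were measured in the same libraries. None of the listed genes of airway epithelium or of thyroid, thymus and parathyroid was expressed in the controls by the limit used. Epithelial markers summed to 206 and 119 CPM of the library total (mutants 1 and 2), against 42.1 to 58.4 in controls. Sums over genes that controls hardly express include the even background of the mutants, 1.03 and 0.796 CPM per kilobase of exon, whose part was not taken out. Endothelial markers summed to 510 and 396 against 119 to 280, and neural markers to 1089 and 1376 against 599 to 1030. Of 12 expressed leukocyte markers 2 rose: Csf1r, the receptor of macrophage growth factor, at 109 and 83.8 normalised CPM against 46.0, 40.6 and 37.7, and Cx3cr1, at 52.3 and 53.4 against 21.2, 29.1 and 25.0. The neuronal gene Elavl4 was the 1 of 13 expressed neural markers that rose, at 89.3 and 103 CPM against 37.6, 58.1 and 45.1. Over all expressed genes 2.45% rose. The leukocyte sum was 715 and 938 CPM in the mutants and 543 to 1299 in controls, so these sums overlapped. In controls 1 and 3 the highest leukocyte genes were S100a8, S100a9 and Lyz2. Of the library total, S100a8 was at 0.771 and 125 CPM in the mutants against 273, 53.4 and 336 in controls. Of the 12 expressed leukocyte markers 6 had both mutants above every control, where 23.3% of all expressed genes did, and 0 had both below. Erythroid markers set the libraries far apart: 126700 CPM in mutant 1, 1334 in mutant 2, and 36.5, 9298 and 9745 in controls 1, 2 and 3. The part of these cells in the results above was not tested.

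**Figure D4:**
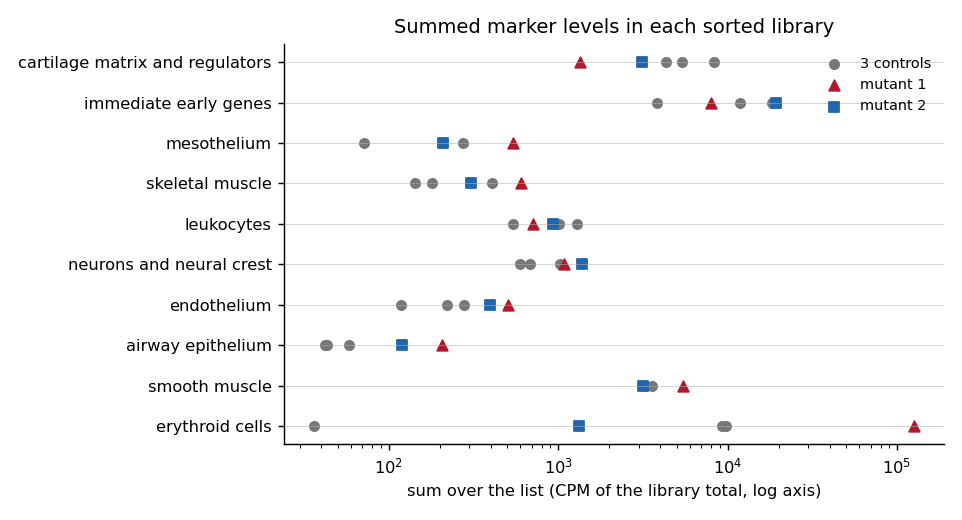
Sum of each marker list in each sorted library, as CPM of the library total on a log axis, with grey circles for the 3 controls, a triangle for mutant 1 and a square for mutant 2. Erythroid genes run from 36.5 CPM in control 1 to 126700 in mutant 1, epithelial and endothelial sums are higher in both mutants than in any control, and the cartilage sum is lower.

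Whole tracheas in which Wls, the carrier of secreted Wnt proteins, was deleted with ShhCre gave a second reading of the same genes from libraries that share no sample with the sorted cells. With 1 mutant library there is no test, so a gene counted as lower or higher when it differed by at least 0.5 on the log2 scale and lay outside both controls by more than the controls differed. By this rule 342 of the 9646 genes (3.55%) were lower in the Wls mutant and 126 (1.31%) higher. Of the 95 genes that fell without Bmp4, 27 (28.4%) were lower in the Wls mutant, which is 7.89% of its 342 lower genes, and 0 were higher. Of the 236 genes that rose, 13 (5.51%) were higher in the Wls mutant and 9 (3.81%) were lower. Bmp4 itself was at 32.6 CPM in the Wls mutant and at 53.1 and 53.4 in its controls.

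The genes lower in both experiments included many of those named above. Msx2 was at 2.25 CPM in the Wls mutant against 10.4 and 10.3 in its controls, Gdf5 at 9.10 against 36.3 and 33.5, and Sp7 at 1.69 against 5.79 and 5.68. Snai1 was at 35.0 CPM against 94.4 and 98.8, Spsb4 at 29.8 against 81.0 and 69.1, Sox5 at 26.7 against 47.2 and 50.6, and Tbx5 at 72.8 against 148 and 162. Further genes lower in both, picked after their values were seen, were Prdm16, a regulator of fat and craniofacial cartilage, at 33.985 CPM against 69.6 and 89.9, and Unc5c, a netrin receptor, at 162 against 299 and 323. In the sorted cells their log2 fold changes were -0.92 ± 0.12 and -1.05 ± 0.18 (edgeR's adjusted p = 0.0283 and 0.0371). Of the 20 cartilage genes 17 were lower in the Wls mutant by this rule of size, which has no test, as were 3.55% of all expressed genes. In the sorted cells 18 were negative, 10 had both mutants below every control and 3 fell by the test. The shares of all expressed genes were 49.3%, 22.2% and 0.985%. Sox9, at 79.8 CPM against 202 and 188, and Col2a1, at 207 against 666 and 574, were among the 17. For the fibrous genes, by the same rule, 1 of the 32 fibroblast matrix genes was higher in the Wls mutant and 5 were lower, and Dcn was at 358 CPM against 323 and 280. Smoc2, at 217 CPM against 221 and 191, and Cxcl13, at 58.0 against 62.3 and 59.8, lay between or near the Wls controls. Rarb and Ldha differed in the Wls tracheas by 0.10 and 0.09 on the log2 scale.

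**Figure D5:**
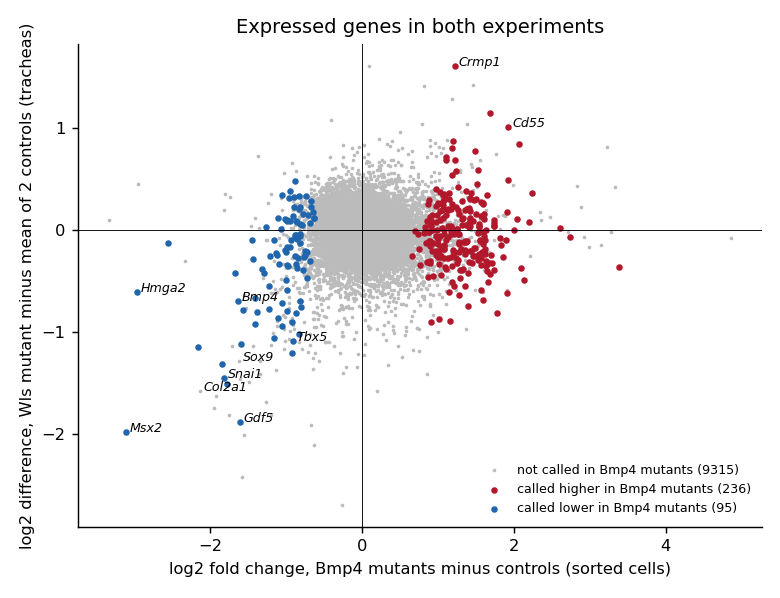
Each expressed gene by its log2 fold change in the sorted Bmp4 mutants (horizontal) and its log2 difference between the Wls mutant trachea and the mean of 2 controls (vertical), with genes that fell in blue and genes that rose in red. Blue points with large decreases, such as Msx2, Gdf5 and Snai1, also lie low on the Wls axis, while most red points lie near 0 on it.

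Among genes higher in both, Crmp1, a protein of growth cones that binds tubulin, had a log2 fold change of 1.23 ± 0.24 without Bmp4 (edgeR's adjusted p = 0.0473) and a difference of 1.60 in the Wls mutant. Cd55, which shields cells from complement, had 1.93 ± 0.33 (adjusted p = 0.0381) and 1.005. The 21 promoters of genes lower in both experiments that were in the RefSeq table had a median of 12 CpG pairs in 300 bases, against 22 over all expressed genes and also 22 over all 75 promoters of genes that fell.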

How the data were processed

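Sorted tracheal cells (5 libraries) and whole tracheas (3 libraries) were measured by RNA sequencing. The authors deposited whole-number counts per gene symbol, and these were used as deposited. Trizol RNA, per the labels' protocols, was amplified with SMART-Seq v4 (sorted cells) or Ovation v2 (tracheas) and made into Nextera XT libraries. Per the submitters' processing notes the tools were Trim Galore, Bowtie2, Cufflinks and DESeq with build mm10, their roles not given. The counter, strand setting and annotation are not named there, so overlapping and antisense genes cannot be told apart. Reads carried no molecular identifiers. Same-group libraries differed by 90.8 to 235 times what counting noise gives (chi-square divided by degrees of freedom).

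Genes with at least 10 CPM in each of 3 controls were kept, libraries were scaled by TMM on these genes, and mutants were tested against controls with edgeR 4.0.16 in R 4.3.3 (quasi-likelihood F test, 3 residual degrees of freedom, Benjamini-Hochberg over 9646 genes, threshold 0.05). Standard errors are the log2 fold change divided by the root of F. The script was checked on simulated counts. Results for some genes are not reported here. The members and gene lists were chosen with earlier results of these data known. Named genes were Bmp4, the 15 largest called changes in each direction, up to 4 called members of each list, the 10 most abundant genes, the 10 that differed most between mutants, those at the CPM limit, those that moved alike in the Wls trachea, the 5 lowest p-values in each direction and defining pathway members. Exon lengths came from GENCODE M21 (9597 of 9646 genes matched). Trachea values are CPM of the expressed-gene total. Alternatives were other scalings, tools (limma-voom 3.58.1, DESeq2 1.42.0), limits, the whole table, background subtraction, a replicate block and leaving out each library.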

Additional observations from a re-analysis of the deposited data

How the results depend on the processing

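Among the 9646 expressed genes, the counts of 236 higher and 95 lower genes (331 in all) were within 1.5 times with DESeq2's size factors (238 and 102) and without normalisation factors (288 and 97). They were 1003 and 708 (1711) with DESeq2's Wald test, and 146 and 45 (191) with limma-voom. Other limits tested other sets of genes. A limit of 5 CPM gave 634 and 285 (919) of 10998 genes, of which 318 and 282 were among the 9646. A limit of 50 CPM gave 19 and 12 (31) of 4484 genes. A mean of 10 CPM over all libraries gave 780 and 385 (1165) of 10972 genes, of which 284 and 385 were among the 9646. The whole table, 21665 genes tested, gave 9904 and 741 (10645) when scaled on expressed genes. Scaled on itself, a choice added after seeing the data, it gave 8507 and 3381 (11888). Of the expressed genes alone that last fit called 305 higher and 3344 lower, with their median log2 fold change at -0.39, and 6 list medians turned negative (lysosome, immediate early, Notch, collagen folding, imprinted and p53 lists). Subtraction of the even background gave 10 and 11 (21), of which 15 were among the 331. Leaving out 1 library gave between 0 and 293 higher, between 0 and 76 lower and between 0 and 369 in all. With the replicate number as a block, 0 higher, 0 lower and 0 in all passed (1736 at an unadjusted p under 0.05; Bmp4 adjusted p = 0.0772). Same-numbered libraries did not deviate together (r = -0.192 and -0.096 over genes), so the numbers do not show a pairing. With a Wls difference of at least 1 on the log2 scale, 11 genes were lower and 3 higher in both. Among the 78 called genes that were refitted, none changed sign under any alternative that tested it, and 66 lost the call under subtraction and 22 with limma-voom. The shallower mutants limit what low genes can show, and the cause of these changes was not tested.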

Other observations

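The 10 expressed genes that differed most between the mutants are mostly known from cells other than mesenchyme. They were the granulocyte genes S100a8, S100a9 and BC100530, the red cell genes Alas2, Slc25a37, Car2 and Bpgm, the muscle genes Actc1 and Tagln, and the ribosomal gene Rpl29. Alas2, the first enzyme of heme synthesis in red cells, was at 3760.5 normalised CPM in mutant 1 and 179 in mutant 2, and at 25.1, 105 and 73.0 in the controls. S100a8, an abundant protein of neutrophils, was at 0.985 and 135 CPM in the mutants and at 284, 56.6 and 339.7 in the controls. Tagln, an actin-binding protein of smooth muscle, was at 331 and 28.5 CPM against 15.7, 30.1 and 29.9. Rpl29 was at 231 and 19.2 CPM in the mutants and ran from 17.7 to 538 in the controls, so it varied as widely among controls as between mutants.

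Genes of lysosomes and autophagy had a median log2 fold change of 0.30 over 30 expressed members, of which 1 rose, 0 fell and 14 had both mutants above every control, as had 23.3% of all expressed genes. The 1 call is close to the 2.45% of expressed genes that rose. That median was -0.10 when the whole table set the scaling, which moved the median of all expressed genes to -0.39. In the Hippo list of 18 genes Tead2, the DNA-binding partner of YAP, fell from 197, 177 and 206 CPM to 109.7 and 109, and Axl, a receptor kinase known as a YAP target, rose from 166, 230.2 and 177 to 362 and 344. Cholesterol and fatty acid synthesis genes had a median of -0.02 over 30 members, with 0 called. Immediate early genes, which respond to handling of cells, had sums of 8022 and 19399 CPM (mutants) and of 3849, 18197 and 11800 CPM (controls) of the library total.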
